A study of Mus musculus with 12 samples.

Results

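The intervals described here are stretches of chromatin with trimethylated lysine 27 of histone H3 (H3K27me3) that lay far from genes in mouse myoblasts. They were taken from the deposited list of MACS peaks named for H3K27me3 in myoblasts, in which each interval has a score of at least 50. An interval was kept, and is called distal here, when it lay on chromosomes 1 to 19, overlapped no annotated gene of any kind in the mm9 genome, and was over 10 kb from the start site (TSS) of every protein-coding gene. Of 17633 listed intervals on these chromosomes, 8781 (49.8%) lay outside genes and 6543 (37.1%) were distal. A further 1613 (9.15%), called promoter intervals, came within 1 kb of a protein-coding TSS, and the other 9477 (53.7%) fitted neither rule. The members were chosen by the myoblast H3K27me3 peak calls, so their scores and their H3K27me3 level in myoblasts are given as a description. The rule used no reads of the other 11 libraries.

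The cells were of C2C12, an established mouse line of strain C3H that grows as muscle precursor cells and fuses into multinucleate fibres when serum is taken away, and they were used at passages 15 to 18. Myoblasts were near confluence in medium with 10% serum, and myotubes were taken about 5 days after serum withdrawal and freed of unfused cells with light trypsin treatment. Each group had 1 chromatin immunoprecipitation library for each of H3K4me1, H3K4me2, H3K4me3, H3K27ac, H3K36me3 and H3K27me3, so no difference could be set against a replicate, and each comparison is between libraries. The line is a model of muscle formation in culture and has no other tissue in it.

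The H3K27me3 library of myoblasts held 7016696 reads, 6627173 of them on chromosomes 1 to 19, and that of myotubes held 5016019, with 4687787 on these chromosomes. That is a mean of 2.77 and 1.96 reads per kb. The other myoblast libraries had 1829220 (H3K27ac), 2685663 (H3K4me3), 4225131 (H3K4me2), 6382799 (H3K4me1) and 6881331 (H3K36me3) reads on these chromosomes. A level, called fold here, is the number of read midpoints per kb in an interval over the mean of that library on chromosomes 1 to 19, so that 1 is the genome mean. The 95% intervals given are exact Poisson intervals for levels, exact conditional binomial intervals for ratios and Clopper-Pearson intervals for shares. For a count of 0 reads, the upper limit given is the level that 3 reads would make. All these cover counting error only.

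H3K27me3 is laid down by Polycomb repressive complex 2, whose catalytic subunit is Ezh2 or Ezh1, and it is read by the Cbx proteins of Polycomb repressive complex 1. The mark is known for covering the CpG-rich promoters of silent developmental regulators, and it also spreads at lower levels over long stretches between genes. In muscle precursors it lies on genes of other lineages and on some genes of the differentiated fibre, and active enhancers carry H3K4me1 with H3K27ac instead.

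Promoter marks matched the labels of both cell types. H3K4me3 within 1 kb of the TSS of Myod1, which encodes the master regulator of the muscle lineage, was 15.2-fold in myoblasts and 20.3-fold in myotubes, and at Des, which encodes the muscle intermediate filament desmin, it was 32.1-fold and 31.6-fold. At Myf5, another muscle determination factor, it was 21.8-fold and 11.3-fold, and at Pax7, a factor of muscle stem cells, 6.68-fold and 2.63-fold. The genes of differentiation were higher in myotubes. H3K4me3 was 5.79-fold in myoblasts and 33.5-fold in myotubes at Myog (the differentiation factor myogenin), 0.891-fold and 16.5-fold at Ckm (muscle creatine kinase), 1.78-fold and 80.8-fold at Acta1 (skeletal actin), 1.78-fold and 50.8-fold at Tnnt3 (fast troponin T), and 2.67-fold and 39.8-fold at Myh3 (embryonic myosin). The promoters of the leukocyte gene Ptprc, the endothelial gene Pecam1, the epithelial gene Epcam and the liver gene Alb had between 0 and 5 H3K4me3 reads in each library, at most 1.88-fold.

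The peak list was also set against the reads. The list named H3K27me3 was deposited with the myoblast H3K27ac sample, and the list named H3K27ac with the H3K27me3 sample. Over the whole list named H3K27me3, the H3K27me3 library was at 6.71-fold and the H3K27ac library at 0.562-fold, and over the list named H3K27ac the levels were 0.790-fold and 34.7-fold. The names of the lists therefore fit the reads, and the lists are used by name.

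The base sequence at the middle of 4 distal intervals shows stretches that were poor and rich in CG pairs under the same mark. Each is 200 bases of the plus strand of mm9 (NCBIM37) with CG pairs in capitals, and each is named by its nearest protein-coding gene. Hif1an was near the interval with the highest score, Dcaf4 near the one with the lowest myotube to myoblast H3K27me3 ratio among those with 30 or more reads over both libraries, and Gata5 near the one with the highest myotube H3K27ac among those that also met a myotube H3K4me3 interval. The Rbm15 interval was closest to the median number of CG pairs per 100 bp among those with a score of at least 200.

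Hif1an chr19:44681200-44681399: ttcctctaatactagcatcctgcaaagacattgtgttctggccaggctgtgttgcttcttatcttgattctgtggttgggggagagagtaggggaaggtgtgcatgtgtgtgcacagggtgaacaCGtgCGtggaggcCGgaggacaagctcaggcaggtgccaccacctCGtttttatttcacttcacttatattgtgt

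Dcaf4 chr12:84827263-84827462: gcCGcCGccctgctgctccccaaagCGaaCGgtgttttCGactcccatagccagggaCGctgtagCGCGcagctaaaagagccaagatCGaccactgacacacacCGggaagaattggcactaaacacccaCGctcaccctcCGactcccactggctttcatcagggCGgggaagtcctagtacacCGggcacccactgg

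Gata5 chr2:180121665-180121864: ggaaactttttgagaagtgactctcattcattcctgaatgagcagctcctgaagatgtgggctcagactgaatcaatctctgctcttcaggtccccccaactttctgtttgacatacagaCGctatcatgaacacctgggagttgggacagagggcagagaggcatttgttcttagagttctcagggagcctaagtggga

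Rbm15 chr3:107167341-107167540: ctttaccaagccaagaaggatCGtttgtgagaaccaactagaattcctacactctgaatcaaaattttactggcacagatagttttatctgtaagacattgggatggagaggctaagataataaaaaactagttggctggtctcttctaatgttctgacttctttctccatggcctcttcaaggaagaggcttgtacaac

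These windows held 4, 14, 1 and 1 CG pairs, in the order shown. The median over all distal intervals was 1 CG pair per 100 bp of interval. The Rbm15 interval, chr3:107166156-107168726, lay in the list with a score of 224, and it had 54 H3K27me3 reads in myoblasts (7.59-fold) and 31 in myotubes (6.16-fold).

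The median width of the distal intervals was 926 bp, with quartiles of 677 and 1303 bp and a range of 343 to 8581 bp, and together they covered 7.33 Mb. Promoter intervals had a median of 1479 bp and the whole list 1013 bp, so the distal ones were on the narrow side of the list. Only 21 distal intervals reached 5 kb. The width went with the score, and the median was 1604 bp at scores of at least 100. The median score was 68.4 in the distal intervals (quartiles 57.0 and 94.7, highest 801) and 92.5 in the promoter intervals. A score of at least 100 was reached by 1442 distal intervals (22.0%) by 45.3% of the promoter intervals and by 26.4% of the whole list, whose median score was 72.1. Many calls, distal or not, thus stood close to the minimum of the list, and distal intervals had a median of 15 myoblast reads each (quartiles 10 and 23).

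The closest distal interval, chr5:37565047-37567128, was 10008 bp from the TSS of Gm1043, with 38 H3K27me3 reads in myoblasts (6.59-fold) and 22 in myotubes (5.40-fold). The closest interval outside genes that missed the rule, chr2:153844011-153844597, was 9999 bp from the TSS of Bpifa2e, with 11 reads (6.77-fold) and 4 reads (3.48-fold). The lowest score among the distal intervals was 50, at chr3:57854251-57854839, 202765 bp from Pfn2, which encodes the actin-binding protein profilin 2. It held 7 myoblast reads (4.29-fold) and no myotube read, and a count of 0 there allows up to 2.60-fold.

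Distal intervals were most frequent in the outer surroundings of genes and became rare in gene deserts. The genome outside genes and over 10 kb from a TSS, called far intergenic here, held 1211521 of 2393515 tiles of 1 kb (50.6%) and 5.40 distal intervals per Mb, while the rest of the genome held 9.38 listed intervals per Mb. Between 10 and 25 kb from a TSS there were 12.1 distal intervals per Mb (1957 intervals). The density was 9.96 per Mb between 25 and 50 kb, 8.37 between 50 and 100 kb, 4 between 100 and 250 kb and 1.13 between 250 and 500 kb. Beyond 500 kb it was 0.110 per Mb: 23 intervals (0.352%) lay there, in 17.3% of the far intergenic tiles. The median distance to a TSS was 43841 bp and the longest 873284 bp.

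**Figure D1:**
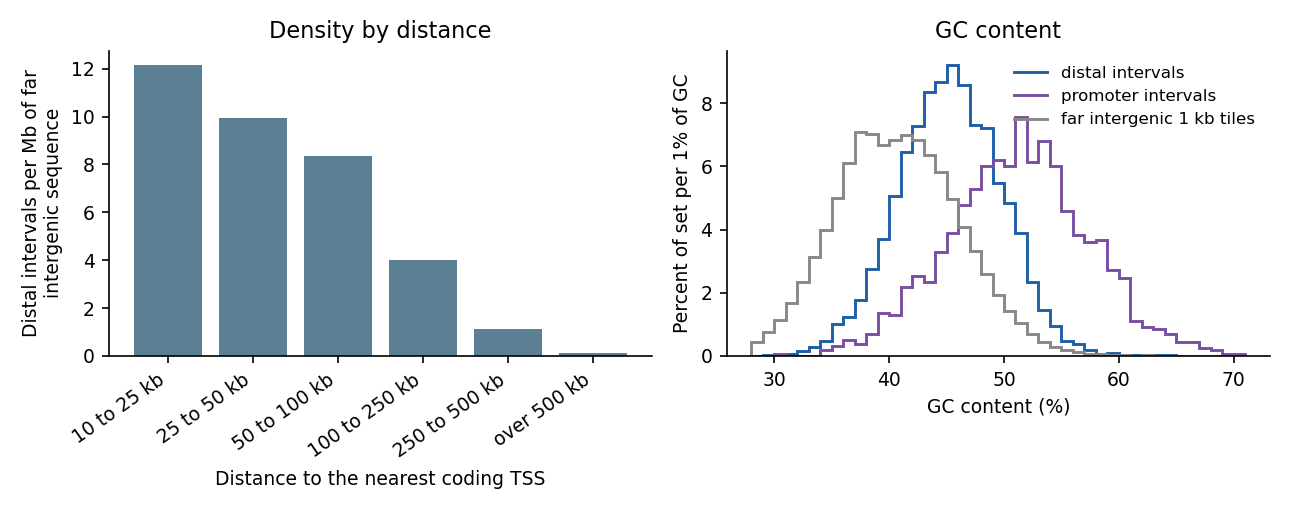
Left, distal intervals per Mb of far intergenic genome (vertical axis) by distance to the nearest protein-coding TSS; right, GC content in percent of distal intervals, promoter intervals and far intergenic 1 kb tiles. The bars fall from 12.1 per Mb at 10 to 25 kb to 0.110 beyond 500 kb, and the distal curve, with a median of 45.3%, sits between the tiles at 40.6% and the promoter intervals at 51.4%.

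The chromosomes differed in density. Chromosome 2 held the most distal intervals, 749 (11.4%, or 9.92 per Mb of far intergenic genome), and chromosome 19 had the highest density, 10.9 per Mb with 262 intervals. The lowest densities were 1.98 per Mb on chromosome 16 (106 intervals) and 2.73 per Mb on chromosome 7 (172 intervals). The myoblast H3K27me3 level of far intergenic tiles outside the intervals also differed between these chromosomes. It was 1.09-fold on chromosome 19, 0.961-fold on chromosome 2, 0.75-fold on chromosome 16 and 0.604-fold on chromosome 7. It did not follow the density throughout: chromosomes 10 and 15 stood at 0.977-fold and 0.986-fold, with 4.49 and 5.23 distal intervals per Mb. Chromosome 7 was also low in the tiles for H3K4me3 (0.413-fold) and H3K36me3 (0.242-fold), and the part of such chromosome-wide differences in the densities was not tested.

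Distal intervals had a median GC content of 45.3% (quartiles 42.3 and 48.3), against 40.6% in far intergenic tiles (36.9 and 44.3), 51.4% in promoter intervals and 46.1% in the whole list. The distal intervals were thus near the list as a whole, and above the kind of genome they lie in. GC content exceeded the upper quartile of the far intergenic tiles in 3854 distal intervals (58.9%). CG pairs numbered 1 per 100 bp at the median in distal intervals, 0.6 in the tiles, 2.12 in promoter intervals and 1.1 in the whole list. GC content also bears on how many reads a stretch yields and aligns, and its part in these values was not tested.

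CpG-rich intervals, with GC content of at least 50% and a ratio of observed to expected CG pairs of at least 0.6, were few: 21 of the distal intervals (0.321%) against 229 of the promoter intervals (14.2%), 53 of the intervals in neither class (0.559%) and 1.72% of the whole list. The median ratio of observed to expected CG pairs was 0.197 in distal and 0.35 in promoter intervals. For the 21, pooled H3K4me2 in myoblasts was 8.81-fold and H3K36me3 0.498-fold, against 0.614-fold and 0.497-fold over all distal intervals. H3K4me2 varied among the 21, from 0.422-fold to 46.8-fold. A myoblast H3K4me2 call overlapped 8 of them (38.1%), against 0.843% of the distal intervals that were not CpG-rich. Their pooled H3K27me3 in myotubes was 0.384 times that in myoblasts (0.322 to 0.456), while over all distal intervals that ratio was 0.689. The 303 CpG-rich intervals of the whole list had 11.3-fold H3K4me2 and a ratio of 0.414, so these values were not peculiar to the distal ones.

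Most distal intervals had a listed neighbour. Another listed interval lay within 10 kb for 4840 (74.0%, 72.9 to 75), within 5 kb for 62.5% and within 1 kb for 33.1%, and the median gap was 2636 bp. With scores of at least 100 asked of the whole list, neighbours included, the share within 10 kb was 54.9%. Promoter intervals had a listed neighbour within 10 kb in 76.9% of cases and the whole list in 77.2%, so distal intervals were no more crowded than the list. Runs of listed intervals joined by gaps of up to 10 kb are called clusters. The distal intervals fell into 3217 of them: 1703 (26.0%) were alone, and 1514 clusters held at least 2 listed intervals, with a median span of 10442 bp and a longest span of 231059 bp. In 254 clusters there were at least 5 distal intervals, which together made up 1953 of the 6543 (29.8%). Of the 1514 clusters, 175 (11.6%) also took in a promoter interval, and 591 distal intervals (9.03%) belonged to these.

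The stretches between the intervals of a cluster carried the mark too. The 5473 gaps covered 14.7 Mb, and H3K27me3 in them was 3.36-fold in myoblasts (3.34 to 3.38) and 3.35-fold in myotubes (3.33 to 3.38). H3K36me3, the mark of transcribed gene bodies, was 0.4-fold and 0.437-fold in the gaps, and H3K27ac 0.398-fold and 0.463-fold. Within these clusters, the listed intervals were thus the higher stretches of a wider raised level of H3K27me3. Outside the myoblast calls, within the same clusters, the level of the mark was alike in both libraries. The 1703 distal intervals that were alone had no such gap to measure. The gaps were defined by the absence of a myoblast call and can hold myotube calls.

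In the mean over all distal intervals, H3K27me3 fell from 4.88-fold at the midpoint in myoblasts to between 2.40-fold and 2.43-fold at 50 kb, and from 3.76-fold to between 2.26-fold and 2.32-fold in myotubes. Tiles 10 to 50 kb away that met no listed interval still stood at 1.63-fold in myoblasts and 1.67-fold in myotubes, and far intergenic tiles outside H3K27me3 intervals at 0.854-fold and 0.814-fold. Unlike the far intergenic tiles, the flanking tiles could lie in genes or near a TSS, so the 2 sets are not matched for gene content. The same flanking tiles were above the genome mean in myoblasts for the other marks too, at 1.26-fold (H3K4me1), 1.46-fold (H3K4me2), 1.31-fold (H3K4me3), 1.23-fold (H3K27ac) and 1.11-fold (H3K36me3), so the flanks were not particular to H3K27me3.

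**Figure D2:**
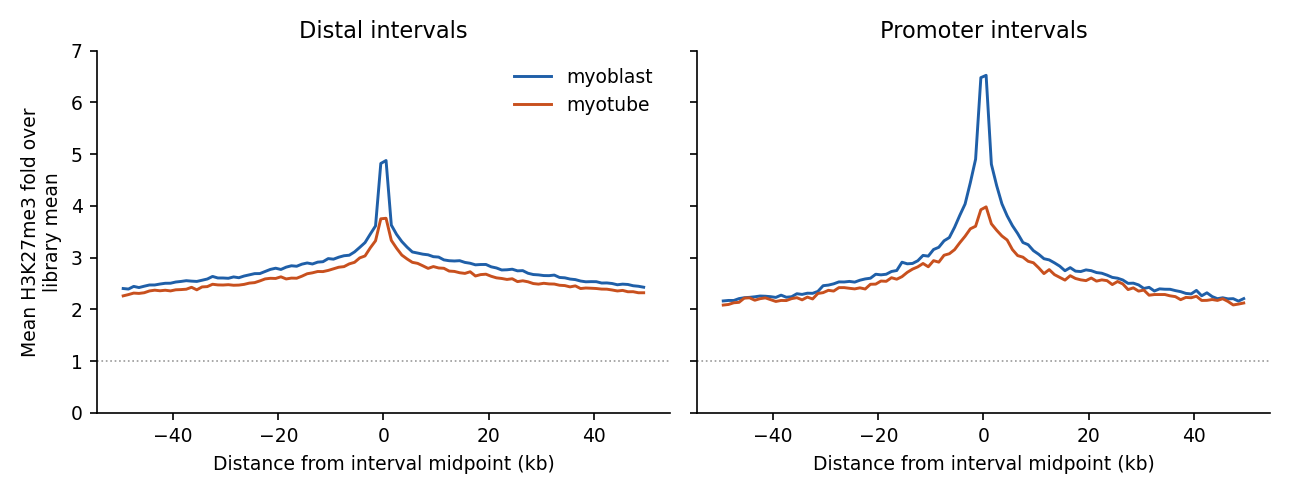
Mean H3K27me3 fold over the genome mean (vertical axis) in 1 kb bins from 50 kb before to 50 kb after the interval midpoint (horizontal axis, kb), for distal intervals (left) and promoter intervals (right), with 1 line for the myoblast and 1 for the myotube library. The distal peak is 4.88-fold in myoblasts and 3.76-fold in myotubes, the promoter peak 6.52-fold and 3.98-fold, and all lines stay above 1 out to 50 kb.

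Other histone marks were low in the distal intervals. No interval of any of the 5 other marks was met by 6416 of them (98.1%) in myoblasts. H3K4me1, found at enhancers and around promoters, overlapped 91 (1.39%, 1.12 to 1.70), and H3K4me2 63 (0.963%). H3K4me3, the mark of active and poised promoters, overlapped 6 (0.0917%), and H3K27ac, the mark of active promoters and enhancers, 2 (0.0306%). H3K36me3 overlapped none, for which the Clopper-Pearson upper bound is 0.0564%. In myoblasts the promoter intervals met H3K4me2 in 29.7%, H3K4me1 in 16.6% and H3K4me3 in 5.02% of cases. Over the whole list the shares were 3.21% (H3K4me1), 3.96% (H3K4me2), 0.601% (H3K4me3), 0.113% (H3K27ac) and 0.0227% (H3K36me3), and over the intervals that were neither distal nor promoter 2.18%, 1.66% and 0.2% for the H3K4 marks. Few calls of other marks were thus a trait of most of the list and not of its distal intervals alone.

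Reads were low as well. Over all distal intervals the pooled myoblast level of H3K4me1 was 0.823-fold (0.811 to 0.836), against 0.592-fold in far intergenic tiles outside H3K27me3 intervals and 2.32-fold in promoter intervals. For H3K4me2 these levels were 0.614-fold, 0.379-fold and 4.70-fold, and for H3K4me3 1.05-fold, 0.572-fold and 1.61-fold. The intervals that were neither distal nor promoter were close to the distal ones, at 0.982-fold, 0.824-fold and 1.1-fold. Pooled over all distal intervals, the 3 kinds of H3K4 methylation were thus above the far intergenic level and near or below the genome mean. This did not hold at low GC content for H3K4me1 and H3K4me2. In the lowest 25% of distal intervals by GC content they were 0.377-fold and 0.264-fold, below the tiles. The median GC content was 40.2% in those intervals and 40.5% in the tiles. H3K27ac was 0.459-fold in distal intervals and 0.453-fold in the tiles, and H3K36me3 0.497-fold and 0.341-fold, with 0.55-fold and 0.547-fold for these marks in the intervals that were neither distal nor promoter. In myotubes the distal intervals stood at 0.872-fold for H3K4me1, 0.670-fold for H3K4me2, 1.08-fold for H3K4me3, 0.532-fold for H3K27ac and 0.540-fold for H3K36me3, each close to its level in myoblasts.

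**Figure D3:**
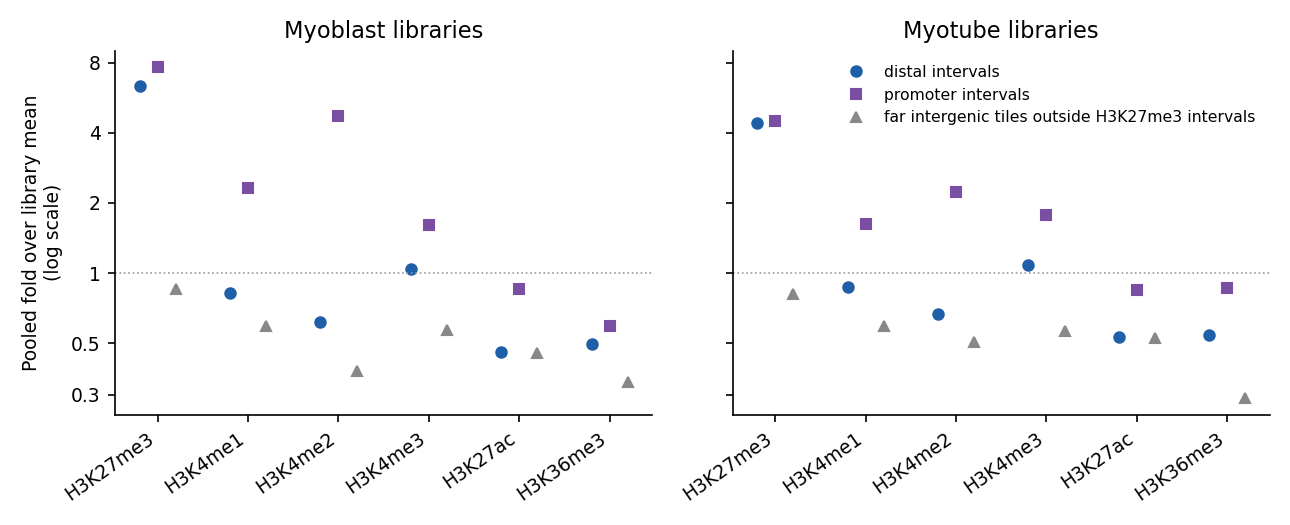
Pooled fold over the genome mean (log axis) for the 6 marks in both cell types, in distal intervals, promoter intervals and far intergenic tiles outside H3K27me3 intervals. H3K27me3 in distal intervals is at 6.37-fold in myoblasts and 4.39-fold in myotubes, and the H3K4me2 points of promoter and distal intervals in myoblasts, 4.70-fold and 0.614-fold, lie far apart.

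H3K4 methylation in the distal intervals moved with base composition. From the lowest to the highest 25% by GC content, pooled H3K4me2 in myoblasts went from 0.264-fold to 1.13-fold. The 63 intervals with a myoblast H3K4me2 call had a median GC content of 53.0%, and their pooled H3K4me2 fell from 9.24-fold in myoblasts to 3.21-fold in myotubes. Of these 63, 14 (22.2%) also met a myotube H3K4me2 interval, and of the 91 with H3K4me1, 7 (7.69%) met a myotube H3K4me1 interval. These shares were not taken over the whole list. The intervals of the H3K4me1 list were 117 bp wide at the median in myotubes and 935 bp in myoblasts, and the part of width was not tested. Since a myoblast call chose the 63 and the 91, lower values in myotubes were partly fixed by the choice. In myoblasts, at least 3 of the 5 other marks exceeded 3-fold in 24 distal intervals (0.367%). This count was not taken over the whole list, so it is not given as a trait of the distal intervals.

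The interval with the most H3K4me3 in myoblasts among the 6 that met a H3K4me3 call was the Dcaf4 interval, chr12:84826424-84828301, whose GC content was 59.2%. It had 17 H3K4me3 reads in myoblasts (8.07-fold, 4.70 to 12.9) and 30 in myotubes (12-fold), and 155 and 91 H3K4me2 reads (46.8-fold and 25-fold). Its H3K27me3 went from 43 reads (8.27-fold) to 3 reads (0.816-fold, 0.168 to 2.38). The annotation used has no gene there, so a CpG-rich stretch with H3K4 methylation can meet the distal rule. Near Nup210, which encodes a nuclear pore protein, another of the 6 had 10 myoblast H3K4me3 reads (7.54-fold), 2 in myotubes (1.27-fold), and 16 and 8 H3K27me3 reads (4.89-fold and 3.46-fold).

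Most distal intervals kept H3K27me3 above the genome mean in myotubes. The median level was 3.97-fold (quartiles 2.72 and 5.33) from a median of 7 reads. Over the 200 kb around each interval in place of the genome mean it was 1.96-fold. The Poisson interval of the level over the genome mean lay above 1 in 4543 (69.4%), against 72.9% of the whole list. In 312 (4.77%) the level was below the genome mean, and 104 (1.59%) had no read, against 3.91% and 1.17%. The level rose with the score in myoblasts, from a median of 3.4-fold in the lowest 25% of scores to 4.69-fold in the highest 25%. A myotube H3K27me3 call overlapped 1306 distal intervals (20%, 19 to 20.9), against 23.1% of promoter intervals and 21% of the whole list. This share depended on the rule: it was 3.32% when 50% of the interval had to be covered, 5.27% with scores of at least 100 in both lists, and 38.4% with that score in the myoblast list alone. In turn, 1491 of the 5367 distal intervals of the myotube list (27.8%, 26.6 to 29.0) met a distal interval of the myoblast list. The share with a call was 10.3% in the lowest 25% of scores and 36.6% in the highest. The myotube list came from a smaller library and was shorter and narrower, with 12843 intervals of 327 bp at the median, and the part of depth in the missing calls was not tested.

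The ratio of myotube to myoblast H3K27me3, after scaling by reads on chromosomes 1 to 19, was 0.689 over the pooled distal intervals (0.683 to 0.696) and 0.586 over the promoter intervals. The ratio of single intervals, with 1 read added to each count, had a median of 0.707 (quartiles 0.530 and 0.900). It was at most 0.5 in 1399 distal intervals (21.4%), where the whole list had 21.8%, and at least 2 in 19 (0.290%), where the whole list had 0.289%. These shares were close to those of the list. Because the intervals were chosen for high myoblast reads, a ratio below 1 was partly fixed by the choice. Over the 5367 distal intervals of the myotube list, chosen the other way, the ratio was 1.90 (1.87 to 1.93), and 47.7% were at 2 or more, against 1.80 and 45.3% over the whole myotube list. Over 10404 distal intervals from both lists merged, which were put together after the values were seen, it was 0.850 (0.843 to 0.858). The direction of the difference thus went with the list used. Taken interval by interval, the counting interval of the ratio lay below 1 in 757 (11.6%) and above 1 in 2 (0.0306%), against 15.2% and 0.0737% of the whole list.

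**Figure D4:**
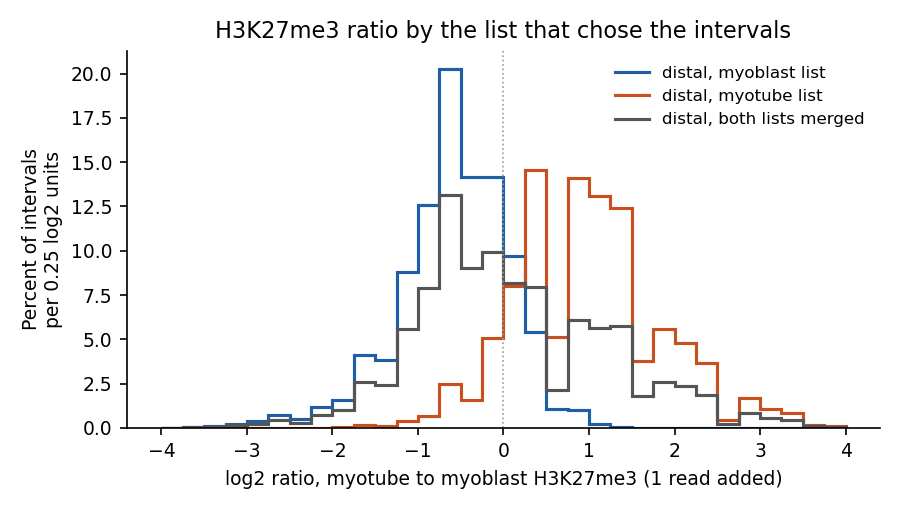
Log2 ratio of myotube to myoblast H3K27me3 in single distal intervals (horizontal axis) and share of intervals (vertical axis) for the myoblast list, the myotube list and both lists merged. The myoblast list lies mostly left of 0, the myotube list mostly right of it, and the merged list between them, with pooled ratios of 0.689, 1.90 and 0.850.

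Isolation went with lower H3K27me3 levels in both libraries. Distal intervals with no listed neighbour within 10 kb had a median myotube level of 3.28-fold, a pooled ratio of 0.619 and a median width of 761 bp, and those with a neighbour 4.20-fold, 0.706 and 983 bp. Their median myoblast levels were 5.70-fold without and 6.19-fold with a neighbour. GC content moved the same way: the median myotube level was 3.42-fold in the lowest and 4.35-fold in the highest 25% by GC content, with pooled ratios of 0.643 and 0.724. The median myoblast levels there were 5.81-fold and 6.34-fold.

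The extremes of the ratio were taken among the 2210 distal intervals whose reads summed to 30 or more over the pair of H3K27me3 libraries. The lowest was the Dcaf4 interval, whose ratio with no read added was 0.0986 (0.0196 to 0.308). Next was an interval near Slc4a1, the gene of the red cell anion exchanger, with 35 and 4 reads (6.97-fold and 1.13-fold), a ratio of 0.162 (0.0417 to 0.452). The next, at 0.202 (0.0772 to 0.448), was chr19:44745165-44747390 near Pax2, a transcription factor of kidney, eye and ear, with 49 and 7 reads (7.95-fold and 1.61-fold). At the other end were intervals near Paip2b, a regulator of translation, and Lhx3, a factor of pituitary and motor neurons, each with 12 myoblast and 18 myotube reads. Their ratio was 2.12 (0.966 to 4.83). The third was near Bhlhe23, a neural transcription factor, with 13 and 19 reads and a ratio of 2.07 (0.968 to 4.55). All 3 of these counting intervals include 1, while those of the 3 lowest do not, a contrast that is partly set by choosing extremes among intervals with high myoblast reads.

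In a small group of intervals, H3K27me3 was lower in myotubes where H3K27ac was called. A myotube H3K27ac call overlapped 31 distal intervals (0.474%) and 0.584% of the whole list, and this choice by itself sets H3K27ac higher in myotubes. Over these, pooled H3K27ac was 0.732-fold in myoblasts and 12-fold in myotubes, H3K4me1 1.43-fold and 7.15-fold, and H3K4me3 1.08-fold and 7.25-fold. The H3K4me3 value rested on a pair of intervals near Gata5, which held 212 of the 414 myotube reads (51.2%): without them it was 3.75-fold, and the median of the 31 was 4.07-fold. Their H3K27me3 ratio was 0.386 (0.330 to 0.451) with a median myotube level of 2.39-fold, and the ratio was at most 0.5 in 23 of the 31 (74.2%). In the distal intervals without such a call it was at most 0.5 in 21.1%, and in the 103 intervals of the whole list with such a call in 71.8%. The lower H3K27me3 at sites with a myotube H3K27ac call was thus about as common in the whole list as in its distal intervals.

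The Gata5 interval of the printed sequence, chr2:180121124-180122405, was among the 5 with the highest myotube H3K27ac, and so was chr2:180124357-180125528, also nearest to Gata5, which encodes a transcription factor of heart and gut. Between them lies the microRNA gene Mir1a-1, at chr2:180123753-180123829, whose product miR-1 is the main microRNA of muscle. It was singled out after the values were seen, as was the noncoding transcript B230312C02Rik on the minus strand, whose start lies 533 bp from the first interval. In the first interval H3K27ac went from 1 read in myoblasts (1.02-fold) to 118 in myotubes (47.5-fold, 39.3 to 56.9), and H3K4me3 from 1 read (0.695-fold) to 142 (83.3-fold). H3K27me3 went from 29 reads (8.17-fold) to 6 (2.39-fold), a ratio of 0.292 (0.0993 to 0.717). In the second, 527 bp from the microRNA, H3K27ac rose from 0 reads, which allows up to 3.35-fold, to 77 (33.9-fold), and H3K4me3 from 1 (0.760-fold) to 70 (44.9-fold). H3K27me3 fell there from 25 reads (7.70-fold) to 8 (3.49-fold), with a ratio of 0.452 (0.176 to 1.03). On both sides of the microRNA, H3K27ac and H3K4me3 were high in myotubes and at no more than 1 read each in myoblasts.

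A neighbouring pair near Fam53a was also among the 5. At chr5:33899686-33900376 H3K27ac went from 1 read (1.89-fold) to 80 (59.7-fold), and H3K27me3 from 12 (6.27-fold) to 3 (2.22-fold), a ratio of 0.353 (0.0640 to 1.31). At chr5:33897926-33899088 H3K27ac went from 0 to 63 reads (28-fold), and H3K27me3 from 18 (5.59-fold) to 6 (2.63-fold), a ratio of 0.471 (0.153 to 1.24). Both of these counting intervals include 1. H3K4me3 rose less at these sites than beside the microRNA, to 6.53-fold and 5.82-fold, from 1 read each. The fifth, chr11:102195819-102196982 near Ubtf, which encodes a factor of ribosomal DNA transcription, had 55 myotube H3K27ac reads (24.4-fold) and 3 myotube H3K27me3 reads (1.32-fold), against 1 and 17 in myoblasts.

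Of 31 entries on the list of muscle genes, 3 were nearest to a distal interval, with 6 intervals in all (0.0917%, against 0.123% of far intergenic tiles). They were Myh3 with 3, Mef2c with 2 and Mef2d with 1, the last 2 being genes of transcription factors that act with the MyoD family. The intervals near Myh3 varied. At chr11:66917375-66918010, 25539 bp from its TSS, H3K27me3 went from 9 reads (5.11-fold) to 0, which allows up to 2.41-fold, and H3K27ac from 0 to 25 reads (20.3-fold). At chr11:66922061-66923438 there were 25 and 10 H3K27me3 reads (6.55-fold and 3.71-fold) and 9 myotube H3K27ac reads (3.37-fold), and at the third 9 and 3 H3K27me3 reads (4.63-fold and 2.18-fold). Near Mef2c, chr13:83852471-83854576 had 48 reads (8.23-fold) in myoblasts and 27 (6.55-fold) in myotubes, a ratio of 0.795 (0.477 to 1.30), and the other interval 5 and 3. The Mef2d interval had 14 and 11 reads, with a ratio of 1.11 (0.456 to 2.63). Of these 6 ratios, only that of the first Myh3 interval had a counting interval below 1.

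Genes near distal intervals carried the mark at their own promoters more often than genes at large. The 6543 intervals had 2123 nearest protein-coding genes of 21410, of which 969 were nearest to a single interval, while the 118 genes that were nearest to at least 10 took 1868 intervals (28.5%). A promoter H3K27me3 interval was present at 441 of the 2123 (20.8%, 19.1 to 22.6) and at 1293 of all 21410 genes (6.04%). Counted by interval, 1736 (26.5%) had a nearest gene with a promoter interval, against 4.63% of far intergenic tiles. When the genes on both sides are counted, at least 1 had it for 2755 intervals (42.1%), against 8.98% of the tiles. The comparison with tiles was added after the values were seen.

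Kinds of gene differed in how often they were nearest to a distal interval, and developmental transcription factors were more frequent than in the far intergenic genome. Symbols of families such as Hox, Pax, Sox, Lhx, Fox and Tbx, listed by their first letters, took in 242 genes, 83 of them nearest to a distal interval. They were nearest to 452 intervals (6.91%) and to 2.06% of the far intergenic tiles, and 449 (6.86%) when symbols that only share the letters were dropped. Signalling ligands were nearest to 45 (0.688%, against 0.441% of tiles), and to 41 (0.627%, against 0.35%) without genes that only share their letters, such as the receptor gene Fgfr3. Of these 41, 14 were nearest to Wnt7a, and without it 27 (0.413%) remained, against 0.345% of tiles. Neuronal adhesion genes, which are long and lie in gene deserts, were nearest to 10 (0.153%, against 3.84%), and chemoreceptor genes to 30 (0.459%, against 1.91%). These kinds of gene were thus less frequent beside distal intervals than in the far intergenic genome. A developmental factor lay within 500 kb of 1378 distal intervals (21.1%) and of 5.64% of the tiles, a distance that was picked after the values were seen. Within 100 kb the shares were 8.25% and 1.29%, and within 1 Mb 32.6% and 10.6%.

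Genes on a list of Polycomb genes were nearest to 4 distal intervals (0.0611%), against 0.0744% of far intergenic tiles. Cbx8, which encodes a chromobox subunit of Polycomb repressive complex 1, was the nearest gene of 3 distal intervals, between 13413 and 20014 bp from its TSS. H3K27me3 in them was 10.8-fold, 8.45-fold and 6.59-fold in myoblasts and 3.49-fold, 5.37-fold and 7.17-fold in myotubes, in order of distance. The first, chr11:118915696-118916865, with 35 and 8 reads, was the only one of the 3 whose ratio, 0.323 (0.129 to 0.709), had an interval that lay below 1. All but the farthest of the 3 also met myoblast H3K4me1 and H3K4me2 calls, with myoblast H3K4me2 at 9.68-fold and 7.95-fold.

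The 10 genes nearest to the most distal intervals were Hnrnpa3 (55), Mtx2 (52), Atp5g3 (46), Tbca (37), Lnp (30), Gm6576 (28), Otx2, Rps24 and Trim29 (26 each) and Olig3 (25). Otx2 and Olig3, which encode transcription factors of the forebrain and of the dorsal neural tube, were the only 2 of the 10 with a promoter H3K27me3 interval of their own, a share near the 20.8% of all 2123 nearest genes. Hnrnpa3 (an RNA-binding protein), Mtx2 (a mitochondrial import protein), Atp5g3 (a subunit of the mitochondrial ATP synthase) and Lnp (a protein of the endoplasmic reticulum) surround the Hoxd genes, which pattern the limbs and the trunk. Together they were nearest to 183 distal intervals (2.80%, and 24.4% of those on chromosome 2). Within 1 Mb of the stretch from Evx2 to Hoxd1 (chr2:74491049-74603200) there were 190, with 80 on one side and 110 on the other. Their median myotube level was 4.49-fold, 40 of the 190 overlapped a myotube call, and their pooled ratio was 0.678 (0.642 to 0.716). Over all distal intervals the level was 3.97-fold, 20% overlapped a myotube call and the ratio was 0.689. The counts of 183 and 190 were not set against the far intergenic tiles around these genes, so no excess is read from them.

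The 5 clusters with the most distal intervals are described in turn, with genes inside or beside them. The first, chr19:44659153-44771574, held 30 distal intervals in 112422 bp between Hif1an, which encodes an oxygen-sensing hydroxylase, 8388 bp to its left and Pax2, 58964 bp to its right. Over its whole span H3K27me3 was 5.71-fold in myoblasts and 4.43-fold in myotubes, a ratio of 0.776 (0.717 to 0.840), and 15 of the 30 overlapped a myotube call. The level was high along the span in both libraries, and H3K36me3 was low there. The second, chr2:75301110-75419653, held 27 near Hnrnpa3, at 4.77-fold and 3.67-fold. The third, chr13:48751977-48863443, held 26 around Barx1, a factor of stomach and jaw, at 5.43-fold and 4.14-fold. The fourth, chr13:99108691-99193825, held 21 around Foxd1, a factor of kidney stroma, at 5.99-fold and 4.43-fold. The fifth stood apart. At chr6:91238566-91319305, around Wnt7a, the gene of a secreted signal, and next to Fbln2, that of a matrix protein, 21 distal intervals lay in a span at 5.65-fold in myoblasts and 5.81-fold in myotubes, a ratio of 1.03 (0.945 to 1.12). In the other 4 the ratio was between 0.739 and 0.776. In the second to the fifth cluster, 1, 6, 7 and 6 distal intervals overlapped a myotube call. The share with such a call was 20% over all distal intervals and 23.0% over those with a listed neighbour within 10 kb.

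**Figure D5:**
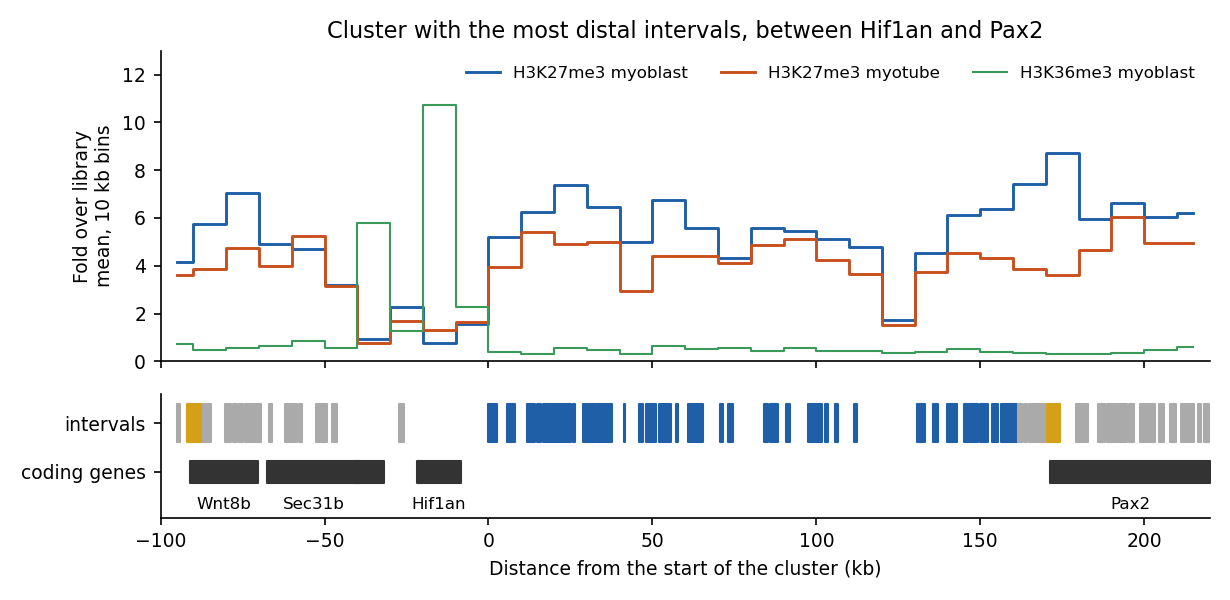
H3K27me3 in myoblasts and myotubes and H3K36me3 in myoblasts (fold over the genome mean, vertical axes, 10 kb bins) along the cluster between Hif1an and Pax2, by distance from the cluster start in kb, with distal intervals in blue, promoter intervals in yellow, other listed intervals in grey and protein-coding genes in black. H3K27me3 averages 5.71-fold in myoblasts and 4.43-fold in myotubes over the 112422 bp of the cluster.

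The 10 intervals with the highest scores had scores from 559 to 801, widths of 3425 to 8581 bp and GC contents of 39.4 to 51.3%. They were nearest to Hif1an, Sub1, 9130409I23Rik, Atl2, Gm9953, Sulf2, Map4k3, Rybp, Slc35d3 and Ifngr1, at 20725 to 271136 bp. Rybp is itself a subunit of a form of Polycomb repressive complex 1. Their myoblast H3K27me3 was 7.73-fold to 11.0-fold, as the choice by score entails, and their myotube level 4.26-fold to 10.3-fold. A myotube call overlapped 6 of the 10, against 36.6% of the highest 25% of scores and 20% of all distal intervals. In myoblasts none of the 10 exceeded 0.661-fold for H3K4me2, 1.17-fold for H3K27ac, 0.678-fold for H3K36me3 or 1.38-fold for H3K4me1, and H3K4me3 reached 2.18-fold (1.35 to 3.33) in the interval near Sulf2. The Hif1an interval, chr19:44678264-44684335, had 154 reads in myoblasts (9.16-fold, 7.77 to 10.7) and 53 in myotubes (4.46-fold, 3.34 to 5.83). The widest, near Sulf2, which encodes a sulfatase that trims heparan sulfate, was chr2:166037448-166046028 with 200 and 122 reads (8.42-fold and 7.26-fold). The one near Ifngr1, the gene of an interferon gamma receptor chain, had 116 and 90 reads (9.37-fold and 10.3-fold), and its ratio of 1.1 (0.823 to 1.46) was the highest of the 10. The strongest distal intervals were thus all still above 4-fold in myotubes, with H3K27ac and H3K36me3 near or below the genome mean in myoblasts.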

How the data were processed

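Reads of 12 libraries were compared, 1 per mark and cell type. The authors aligned reads to mm9 with Mosaik and deposited each aligned read as a line with a count of 1. The peak lists deposited by the authors carry a MACS score of at least 50, and the MACS control and settings were not available here. Genes were taken from GENCODE M1 and bases from NCBIM37, which is the same assembly as mm9. No repeat annotation was used. Reads were extended to 150 bp and their midpoints counted; tiles of 1 kb needed at least 900 known bases. The members and gene lists were chosen with earlier results of these data known. Named genes were the nearest protein-coding genes of the 10 highest scores, the 5 largest clusters, the 10 genes nearest to most intervals, the 3 highest and 3 lowest ratios, the 5 highest H3K27ac (myotube) and H3K4me3 (myoblast) levels, and the members of the muscle and Polycomb lists. Some items of these lists are not reported here. No test was run, since each group had 1 library. The counting of reads in intervals was checked on simulated data. The scripts ran under Python 3.11.15 with scipy 1.17.1, pandas 2.3.3 and numpy 2.4.6, and plots were drawn by matplotlib 3.10.9.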

Additional observations from a re-analysis of the deposited data

How the results depend on the processing

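Of 41 alternatives for 10 results, 7 left the value within its interval (or, for the count, within 1.5 times), 33 moved it and 1 reversed its direction. The reversal came with the distal intervals of the myotube list, where the pooled myotube to myoblast ratio was 1.90 in place of 0.689. It follows the list that chose the intervals, and the cause beyond that was not tested. With both lists merged the ratio was 0.850. It was 0.733 when scaled by 10 kb background windows, 0.696 at scores of at least 100, and 0.707 and 0.839 as the median of interval ratios with 1 and 5 reads added.

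At scores of at least 100 the count fell from 6543 to 1442, the median width rose to 1604 bp and median GC content was 45.9%. The median myotube level was then 4.74-fold, the overlap with myotube H3K27me3 38.4% and with myoblast H3K4me1 1.73%. Of nearest genes, 18.6% had a promoter interval. The share with a neighbour within 10 kb fell to 54.9% when that score was asked of the whole list, neighbours included. With that score in both lists the overlaps were 5.27% and 0.555%. Over 50 kb from a TSS there were 2961 intervals with a median width of 877 bp and GC content of 44.8%. Gaps of 5 and 25 kb gave 62.5% and 84.6% with a neighbour, and 500 bp around the midpoint gave a GC content of 45.6%.

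With 200 kb around each interval as background, the myoblast level was 2.94-fold and the median myotube level 1.96-fold. In 1 kb around the midpoint the latter was 4.09-fold, and it was 3.74-fold and 4.21-fold below and above the median GC content. The list deposited with the H3K27me3 sample, which is the one named H3K27ac, gave a myoblast level of 0.812-fold. This is below the genome mean, and it was counted as moved and not as reversed. When 50% of an interval had to be covered, overlaps were 3.32% (myotube H3K27me3) and 0.657% (myoblast H3K4me1), and within 1 kb 31.7% and 2.90%. With 5 kb either side of a TSS, 34.6% of nearest genes and 10.7% of all genes had an interval at the promoter, and with 1 kb it was 17.5% of the genes on both sides. The other 7 were the interval count with a limit of 5 kb and with non-coding genes left out of the rule, the median myotube level with reads not extended or extended to 250 bp, and that level, the myoblast level and the ratio with each position and strand counted once. The GC split and the merged lists were chosen after seeing the data.

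Depth limits single intervals: with a median of 15 and 7 reads, most single ratios had intervals that include 1. With 1 library per mark and cell type, library and cell type cannot be told apart. The myotube list was called from fewer reads, and overlaps with it depend on its threshold. Repeats, copy number and a control library could not be examined with the files used. The nearest gene is a matter of position, and no link between an interval and a gene was measured.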
